A study of Mus musculus with 9 samples.

Results

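The genes described here are 10 mouse genes of the integrated stress response and of serine synthesis, namely Atf4, Ddit3, Chac1, Trib3, Asns, Sesn2, Phgdh, Psat1, Shmt2 and Mthfd2. They were chosen with earlier results of these data known. They were picked by symbol from the 50600 genes of the deposited tables, and all 10 were found. Their levels were compared in RAW-Blue, a macrophage cell line of the mouse with a built-in reporter of inflammatory transcription. One group had been stimulated with lipopolysaccharide, a cell wall component of Gram-negative bacteria, at 1 µg/ml for 24 hours (LPS, n = 3), and the other had received no stimulus (None, n = 3). A further group of 3, given nanovesicles of Peucedanum japonicum for 16 hours before LPS (LPS-PjELNs), was not analysed here, since its labels match none of the column names. All samples were of this single line, and a further culture of 24 hours is listed for all of them. The labels do not say that replicates were separate cultures, so a p-value here covers the spread between samples, which may be technical.

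The integrated stress response starts when a kinase phosphorylates the translation factor eIF2alpha in answer to lack of amino acids, unfolded protein, viral RNA or lack of heme. General translation then drops, while the Atf4 message, which carries upstream reading frames, is translated more. Atf4 is a leucine zipper transcription factor that binds DNA together with C/EBP proteins and raises genes for amino acid import, amino acid synthesis and tRNA charging, as well as the factor Ddit3 (CHOP). The serine pathway is part of that programme. Phgdh, Psat1 and Psph turn a glycolytic intermediate into serine, Shmt2 moves a carbon unit from serine to folate in mitochondria, and Mthfd2 oxidises the product for use in purine synthesis. Because Atf4 is controlled largely at translation, its RNA level is not a measure of its protein.

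Libraries held 14650843 to 15659413 estimated counts in LPS and 17028457 to 17665200 in None, and totals of the members ran from 105 counts for Chac1 in the 3 None libraries to 23414 for Psat1 in the 3 LPS libraries. The macrophage markers Csf1r, Cd68, Adgre1, Itgam, Lyz2, Fcgr1 and Mertk were all detected, with a summed level of 16930 to 18570 TPM, a level corrected for transcript length and library size, in LPS and 10700 to 12390 TPM in None, and Lyz2 alone reached 17200 TPM. The 4 T cell markers were at 0 counts in all 6 libraries, and the summed levels of B cell, fibroblast, epithelial, endothelial and erythroid markers reached at most 1.69 TPM in any library. Of 11916 genes tested, 34.0% were called higher in LPS and 35.1% lower at an adjusted p under 0.05 (quasi-likelihood test of edgeR, Benjamini-Hochberg over all genes tested). Scaled by library totals alone instead of by TMM, which sets most genes level between libraries, 22.5% were higher and 51.0% lower. That scaling moved log2 fold changes by a median of -0.26, and TPM values moved them by -0.20, so small changes are read against that shift. In bulk RNA, fewer cells that express a gene and less of its RNA per cell cannot be told apart.

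All 10 genes were called higher in LPS, where 34.0% of all genes tested were, and 69.1% were called in either direction. They rose by very different amounts. Chac1, Asns, Ddit3, Trib3 and Mthfd2 rose between 3.425-fold and 7.62-fold, while Sesn2, Atf4 itself, Phgdh, Psat1 and Shmt2 rose between 1.32-fold and 1.89-fold. At least 2-fold increases were thus found for 5 of 10, against 11.1% of all genes tested. Because the genes were chosen with earlier results of these data known, these shares only describe them. The median log2 fold change of the 10 genes was 1.35, against -0.028 over all genes tested, and with scaling by library totals the values were 1.09 and -0.29. In 9 of 10 genes the CPM (counts scaled to library size) of the LPS libraries lay above all None libraries, which held for 35.7% of all genes tested (73.6% in either direction), and Shmt2 was the exception.

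**Figure D1:**
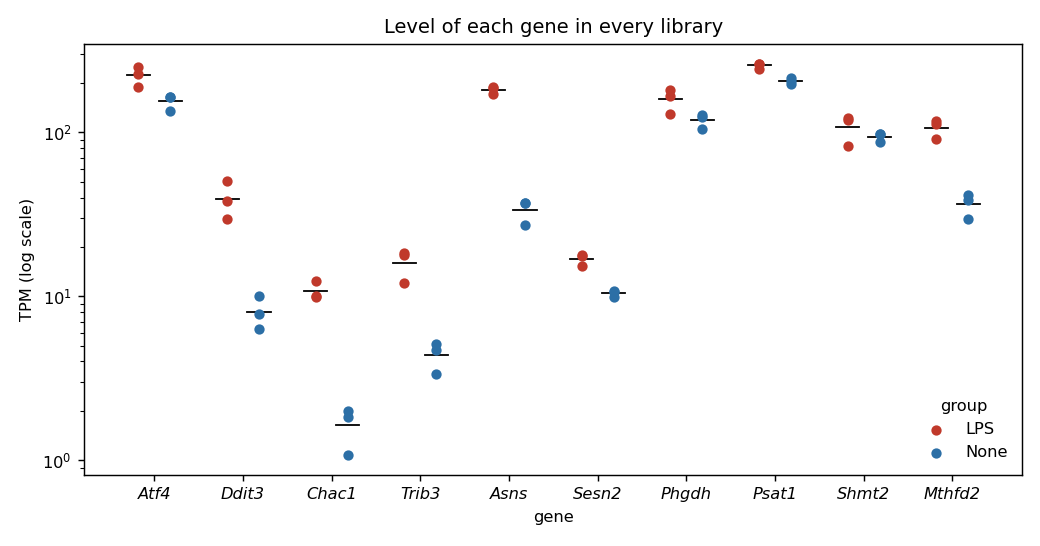
TPM of the 10 genes on a log axis, with 1 point for each library, LPS libraries in red on the left of each pair and None libraries in blue on the right, and a bar at the mean of 3. The groups are well apart for Chac1, Asns, Ddit3, Trib3 and Mthfd2 and overlap for Shmt2, where LPS replicate 1 lay at 82.7 TPM.

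Atf4 (chromosome 15, 80255184 to 80257541, GRCm38) had 189.8, 251 and 227 TPM in the LPS libraries, against 135, 164 and 165 TPM in the None libraries. The groups did not overlap, and LPS replicate 1 was the lowest of its group. The increase was 1.68-fold, with a log2 fold change of 0.75 ± 0.11 (SE) and an adjusted p of 5.82e-05 in edgeR's test.

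The transcription factor gene Ddit3 (chromosome 10, 127290774 to 127296288), which pairs with C/EBP proteins and is known for its part in cell death under lasting ER stress, had 29.5, 37.9 and 50.6 TPM in LPS, against 6.31, 10.1 and 7.76 TPM in None. Every LPS library was well above every None library, and LPS replicate 3 was the highest. Ddit3 rose 5.70-fold (log2 fold change 2.51 ± 0.22, adjusted p 5.94e-07, edgeR). The last 68 bases of Ddit3 overlap the end of the methionyl-tRNA synthetase gene Mars1 on the other strand. Mars1 held up to 2380 counts in an LPS library and 2010 in a None library, so reads from that stretch cannot be told apart if the counting ignored strand.

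Chac1 (chromosome 2, 119351229 to 119354381), a glutathione-degrading enzyme gene known as a target of Atf4, rose most of the 10 genes. It had 10.0, 12.3 and 9.85 TPM in LPS, against 1.07, 1.82 and 1.99 TPM in None. No None library came near the LPS libraries. The fold change was 7.62 (log2 2.93 ± 0.20, adjusted p 5.42e-08, edgeR), on 585 counts in the LPS group and 105 in the None group. Trib3 (chromosome 2, 152337422 to 152344032), a pseudokinase that restrains Atf4 and Ddit3 activity and Akt signalling, had 12.1, 17.8 and 18.2 TPM in LPS, against 3.34, 5.10 and 4.71 TPM in None. It rose 4.15-fold (log2 2.05 ± 0.18, adjusted p 5.98e-07, edgeR), with LPS replicate 1 the lowest of its group.

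Asns (chromosome 6, 7675169 to 7693254) encodes asparagine synthetase, which makes asparagine from aspartate and glutamine. Its level was 170.5, 185.5 and 190.3 TPM in LPS, against 27.1, 37.1 and 37.3 TPM in None. The libraries of each group lay close together and the groups far apart. Asns rose 5.98-fold (log2 2.58 ± 0.12) and had the smallest adjusted p of the 10 genes, 1.94e-09 in edgeR's test. Sesn2 (chromosome 4, 132492032 to 132510501), a leucine sensor that restrains the growth kinase complex mTORC1, had 15.4, 17.7 and 17.7 TPM in LPS, against 9.92, 10.8 and 10.65 TPM in None. The groups did not overlap, and Sesn2 rose 1.89-fold (log2 0.92 ± 0.090, adjusted p 1.8e-06, edgeR).

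Promoter sequence was compared for the DNA element that Atf4 and C/EBP proteins share, since all 10 genes were called in the same direction. Windows from 250 bases before to 50 after each start were taken from RefSeq on GRCm38.p6, and all 10 genes had one. The letters TGATGNAA, on either strand, were found in the windows of Chac1, Trib3 and Asns. Ddit3 and Mthfd2, which rose 5.70-fold and 3.425-fold, had no match. They occur in 2.71% of the 9018 tested genes with a window and in 3.97% of all 32851 windows. Among the 3103 genes with a window that were called higher in LPS the share was 3.13%. The windows are printed 5′ to 3′ along the gene with the match in capitals, in the gene's own direction for Asns and as its reverse complement for Chac1 and Trib3.
Chac1 (chr2:119350992-119351291, + strand): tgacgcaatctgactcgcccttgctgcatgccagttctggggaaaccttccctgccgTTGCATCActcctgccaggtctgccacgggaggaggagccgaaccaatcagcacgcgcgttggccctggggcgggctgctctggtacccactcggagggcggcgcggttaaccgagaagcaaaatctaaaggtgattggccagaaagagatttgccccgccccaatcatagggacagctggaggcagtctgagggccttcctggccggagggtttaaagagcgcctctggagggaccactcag
Trib3 (chr2:152344011-152344310, - strand): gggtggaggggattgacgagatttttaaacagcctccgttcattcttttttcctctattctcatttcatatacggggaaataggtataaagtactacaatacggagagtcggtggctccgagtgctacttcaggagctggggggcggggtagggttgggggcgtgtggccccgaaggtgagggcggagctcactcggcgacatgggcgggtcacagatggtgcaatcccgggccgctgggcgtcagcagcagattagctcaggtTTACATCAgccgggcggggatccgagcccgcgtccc
Asns (chr6:7693160-7693459, - strand): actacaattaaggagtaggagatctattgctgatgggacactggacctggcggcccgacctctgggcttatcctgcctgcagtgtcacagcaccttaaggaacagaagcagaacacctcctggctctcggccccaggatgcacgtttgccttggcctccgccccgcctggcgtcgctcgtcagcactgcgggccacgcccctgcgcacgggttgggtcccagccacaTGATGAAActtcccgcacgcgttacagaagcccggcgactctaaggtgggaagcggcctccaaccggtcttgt
The match starts 193 bases before the RefSeq start in Chac1, 23 bases before it in Asns and at base 15 after it in Trib3. The other 7 windows do not hold these letters, and none of the 10 holds TGACGTCA, TGACGT or the ERSE motif on either strand. In the windows of tested genes these occur in 3.83%, 14.0% and 0.155%, and in all windows in 1.79%, 7.51% and 0.119% (TGACGT is part of TGACGTCA). The composite letters were also in 8 of 22 windows of other known Atf4 targets and 5 of 13 of tRNA synthetases. Leucine zipper partners held them in 3 of 13, carriers in 2 of 9, NRF2 targets in 1 of 13 and mitochondrial stress genes in 1 of 10. They were in 0 of 22 of the other serine, glycine and folate enzymes. The count was also 0 of 16 for the IRE1 and ATF6 arms of the unfolded protein response and 0 of 12 for the eIF2alpha list. Amino acid sensing genes (0 of 14), paralogs (0 of 7) and p53 targets (0 of 11) held none either. These lists, which share some genes, are taken up further on. A match is a description of the letters and not a site in use. The 10 genes were chosen as genes of the Atf4 response, and a link between a match and an increase was not tested.

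Of the serine and folate enzymes among the 10 genes, Phgdh, Psat1 and Shmt2 were more abundant before the stimulus than Mthfd2 and moved less. Psph, which is not among the 10 genes, averaged 15.9 TPM in None and rose by 1.77 on the log2 scale. Phgdh (chromosome 3, 98313170 to 98339990), the dehydrogenase of the first step, had 130.1, 168 and 180.2 TPM in LPS, against 104, 128 and 124 TPM in None. The groups came close, since LPS replicate 1 was just above the highest None library, and the increase was 1.575-fold (log2 0.66 ± 0.12, adjusted p 0.000371, edgeR). A pseudogene, Phgdh-ps1, held up to 10.0 counts in an LPS library and 10.7 in a None library. The aminotransferase gene Psat1 (chromosome 19, 15915009 to 15947337) had 262, 263 and 245 TPM in LPS, against 196, 214 and 207 TPM in None. It rose 1.45-fold (log2 0.54 ± 0.073, adjusted p 2.99e-05, edgeR) and was the most abundant of the 10 genes per length in both groups.

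Shmt2 (chromosome 10, 127517139 to 127522444) had 82.7, 118.5 and 122 TPM in LPS, against 86.9, 98.0 and 97.25 TPM in None, so LPS replicate 1 lay below all None libraries and the others above them. In the fit on counts it rose 1.32-fold (log2 0.40 ± 0.12, adjusted p 0.0111, edgeR). That call was lost with scaling by library totals (log2 0.15, adjusted p 0.32), without LPS replicate 3 (0.30, adjusted p 0.0561), without None replicate 1 (0.34, adjusted p 0.0522) and on TPM values by limma (0.17, adjusted p 0.302). The dehydrogenase gene Mthfd2 (chromosome 6, 83311871 to 83325908) had 90.7, 112 and 118 TPM in LPS, against 29.7, 38.8 and 41.4 TPM in None. The groups were far apart and the increase was 3.425-fold (log2 1.78 ± 0.13, adjusted p 1.06e-07, edgeR). A predicted gene that overlaps Mthfd2 on the same strand, Gm43890, held up to 22 counts in an LPS library and 3 in a None library.

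**Figure D2:**
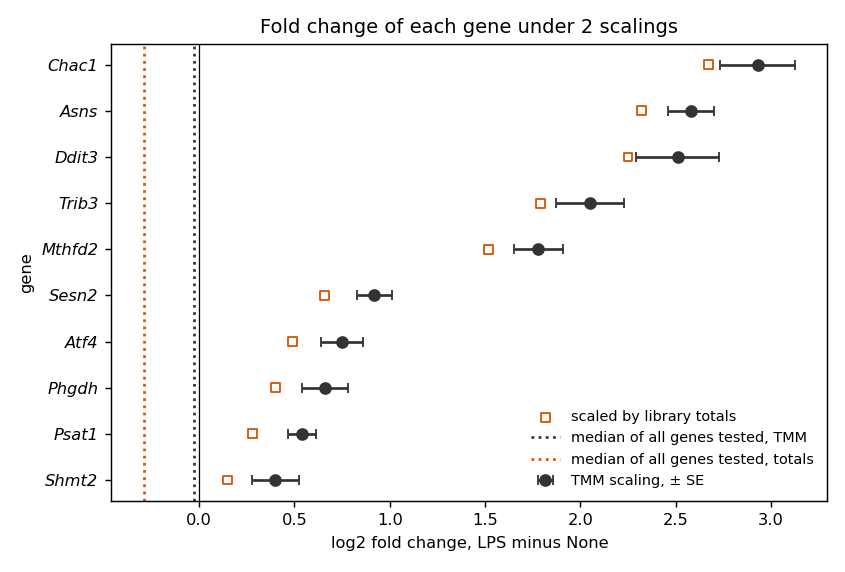
Log2 fold change of LPS minus None for the 10 genes, ordered by size, with filled circles and bars for TMM scaling ± SE and open squares for scaling by library totals, and dotted lines at the medians of all genes tested. Scaling by totals lowers all 10 values by a like amount, from 2.93 to 2.67 for Chac1 and from 0.40 to 0.15 for Shmt2.

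The order of levels per length changed between the groups. In LPS it ran Psat1 (257 ± 9.85 TPM, SD, n = 3), Atf4 (222.5 ± 30.9), Asns (182 ± 10.3), Phgdh (159 ± 26.1), Shmt2 (108 ± 21.7), Mthfd2 (107 ± 14.4), Ddit3 (39.3 ± 10.6), Sesn2 (16.9 ± 1.34), Trib3 (16.0 ± 3.43) and Chac1 (10.7 ± 1.38). The ranges of neighbours overlapped among Psat1, Atf4, Asns and Phgdh, between Shmt2 and Mthfd2, and among Sesn2, Trib3 and Chac1. In None, Psat1 (205.5 ± 8.84 TPM), Atf4 (154.5 ± 17.3), Phgdh (119 ± 12.5) and Shmt2 (94.0 ± 6.20) stood apart from each other. Mthfd2 (36.6 ± 6.16) and Asns (33.8 ± 5.83) then overlapped, as did Sesn2 (10.5 ± 0.474) and Ddit3 (8.04 ± 1.89), and Trib3 (4.38 ± 0.924) and Chac1 (1.63 ± 0.489) came last. Asns thus went ahead of Phgdh, Shmt2 and Mthfd2 in mean level with LPS. The summed level of the 10 genes was 1118 ± 109 TPM in LPS and 667.5 ± 59.4 TPM in None.

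Ratios between genes within a library do not depend on how libraries are scaled. There were 0.899, 0.738 and 0.840 Asns transcripts for each Atf4 transcript in LPS, against 0.201, 0.226 and 0.2255 in None. Ddit3 over Atf4 averaged 0.177 ± 0.0404 in LPS and 0.0518 ± 0.0084 in None, Chac1 over Atf4 averaged 0.0485 ± 0.00472 in LPS and 0.0104 ± 0.00214 in None, and Trib3 over Atf4 averaged 0.0716 ± 0.00848 in LPS and 0.0282 ± 0.00318 in None (SD, n = 3). None of these pairs overlapped between groups, so these genes rose more than the Atf4 message did. Along the serine route, Mthfd2 over Shmt2 was 1.10, 0.946 and 0.969 in LPS, against 0.341, 0.396 and 0.426 in None, while Psat1 over Phgdh, at 1.65 ± 0.333 in LPS and 1.74 ± 0.121 in None, overlapped. Shmt2 over Phgdh was lower in LPS, at 0.673 ± 0.0349, than in None, at 0.795 ± 0.0339, and did not overlap. With 3 libraries a group an exact two-sided permutation test cannot go below p = 0.10, and the pairs were chosen with these data known, so no test is given.

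**Figure D3:**
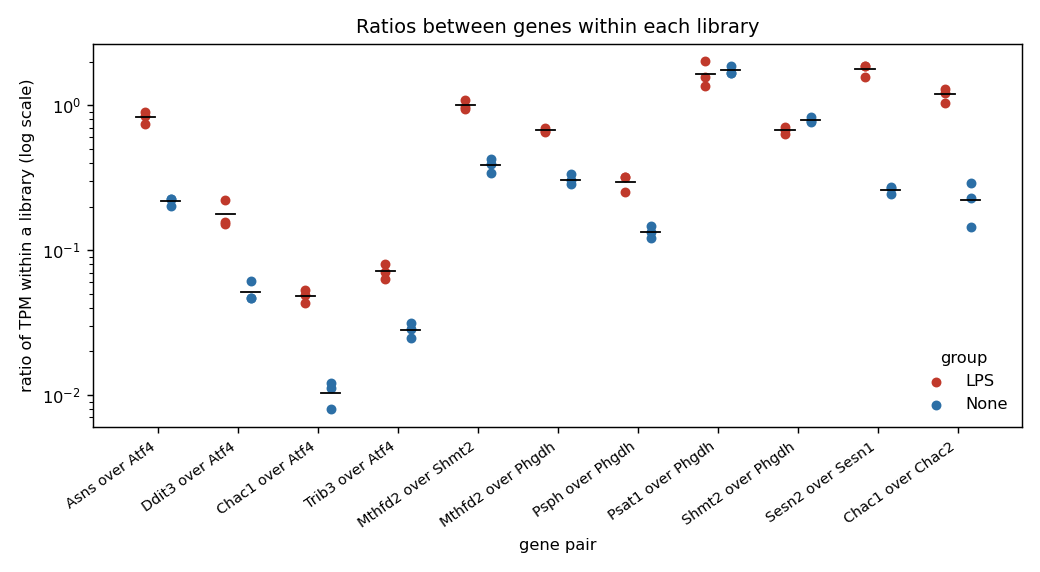
Ratio of the TPM of a pair of genes within each library on a log axis, with LPS in red on the left of each pair and None in blue on the right, and a bar at the mean of 3. Ratios to Atf4 and the ratios of Mthfd2 to Shmt2 and Sesn2 to Sesn1 are apart between the groups, whereas Psat1 over Phgdh overlaps.

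Genes of 12 lists around the pathway, drawn up from general knowledge with earlier results of these data known, were read in the same fit. The share of genes called among the machinery that starts and ends the response was near that of all genes tested, of which 34.0% were higher and 35.1% lower. The list of 16 genes held eIF2alpha, its kinases and phosphatase subunits, the exchange factor eIF2B, and Gcn1, Impact, Dele1 and Oma1. Of these 16 genes, 4 rose and 7 fell, or 2 and 11 with scaling by library totals. Counts with library totals are read against the shares of that scaling, 22.5% higher and 51.0% lower over all genes tested. Eif2ak2, an interferon-stimulated gene that encodes the double-stranded RNA kinase PKR, rose (log2 fold change 1.71, adjusted p 4.11e-09, edgeR). The amino acid sensor kinase Gcn2 gene Eif2ak4 fell (-0.53), as did the ER stress kinase PERK gene Eif2ak3 (-0.31, not called at -0.24 without None replicate 2) and the heme-regulated kinase gene Eif2ak1 (-0.32). Eif2s1, which encodes eIF2alpha, rose by 0.46, a call that was lost with library totals (0.20), and the exchange factor subunit gene Eif2b3 rose by 0.75. The phosphatase subunit gene Ppp1r15a (GADD34), itself a known Atf4 target, was not called at -0.30, but was called lower without LPS replicate 3 (-0.46), without None replicate 1 (-0.46), with library totals (-0.56), with no filter (-0.31) and with the replicate number as a block (-0.30, adjusted p 0.0126).

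Of 15 genes tested among leucine zipper partners and relatives of Atf4, listed with Nupr1, 7 rose and 4 fell, or 6 and 7 with library totals. Over all genes tested 34.0% were higher and 35.1% lower, or 22.5% and 51.0% with library totals. Cebpb, a partner of both Atf4 and Ddit3, rose to 365 ± 37.3 TPM in LPS, against 108 ± 0.468 TPM in None (log2 1.98), and Nupr1 (1.90), Jdp2 (1.65), Nfe2l1 (1.58), Atf3 (1.08) and Atf5 (0.96) also rose. Cebpa (-0.97), Jun (-0.43), Atf6 (-0.43) and Nfe2l2 (-0.38) fell. Cebpg, another partner of Atf4, was not called at -0.04, and was called lower with library totals at -0.30. Batf3 had 0 counts and was not tested.

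Of 27 tested genes on a list of other known Atf4 targets, 19 rose and 3 fell, with a median log2 fold change of 1.08, and with library totals 18 rose and 7 fell. The shares over all genes tested were 34.0% higher and 35.1% lower, or 22.5% and 51.0% with library totals. The largest increases were those of Cth (4.84), which makes cysteine from cystathionine, the cystine carrier Slc7a11 (3.82), the mitochondrial folate enzyme Aldh1l2 (2.83) and the ER oxidase Ero1l (2.76). Cth had 26.1, 37.5 and 36.9 TPM in LPS, against 0.78, 1.20 and 2.42 TPM in None. The translation inhibitor gene Eif4ebp1 (1.35), Pck2 (1.61), the proline and ornithine synthesis gene Aldh18a1 (1.17) and the alanine aminotransferase gene Gpt2 (0.97) rose as well. The secreted factor gene Gdf15 was called higher at 2.14 on 78 counts in LPS and 24 in None, but its groups overlapped, and without LPS replicate 3 it was not called (1.45, adjusted p 0.0656). Stc2 (-1.52), Ndrg1 (-0.73) and Map1lc3b (-0.55) fell, the last not called by limma on TPM (-0.23). Ddit4 (0.20), Herpud1 (-0.01), Cebpg, Xpot (-0.09) and Ppp1r15a were not called, although Ddit4 was called higher without LPS replicate 2 (0.34) and without None replicate 2 (0.33), and Herpud1 and Xpot lower with library totals. Vldlr and Fgf21 had 0 counts in all 6 libraries, and Cbs had 7 counts in LPS and 28 in None, too few for a test. These further names are examples chosen after their values were seen.

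Amino acid carriers and tRNA synthetases followed the same direction in most of their members, where 34.0% of all genes tested were higher and 35.1% lower. With library totals those shares were 22.5% and 51.0%. Of 11 carriers tested, 7 rose and 1 fell, or 7 and 2 with library totals. The carriers that rose include Slc1a4 (2.38), Slc3a2 (1.55), the glutamine carrier gene Slc1a5 (1.02) and the leucine carrier gene Slc7a5 (0.63), and Slc43a2 fell (-1.31). Slc38a2, a carrier of small neutral amino acids and a known Atf4 target, was not called at 0.15, and was called at 0.26 without LPS replicate 1. Of 20 cytosolic aminoacyl-tRNA synthetases, 16 rose and none fell, or 15 and 2 with library totals. Those with the largest values were Farsb (1.61), Cars (1.61), Aars (1.5) and Gars (1.26). Dars (0.17), Farsa (0.09), Qars (0.07) and Vars (-0.19) were not called. Dars was called higher without LPS replicate 3 (0.23), with RLE factors (0.20) and by DESeq2 (0.20). Vars was called lower without LPS replicate 3 (-0.29), with library totals (-0.45) and with no filter (-0.21). It was also called lower with the replicate number as a block (-0.20) and by limma on TPM (-0.45). Qars was called lower with library totals (-0.19).

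**Figure D4:**
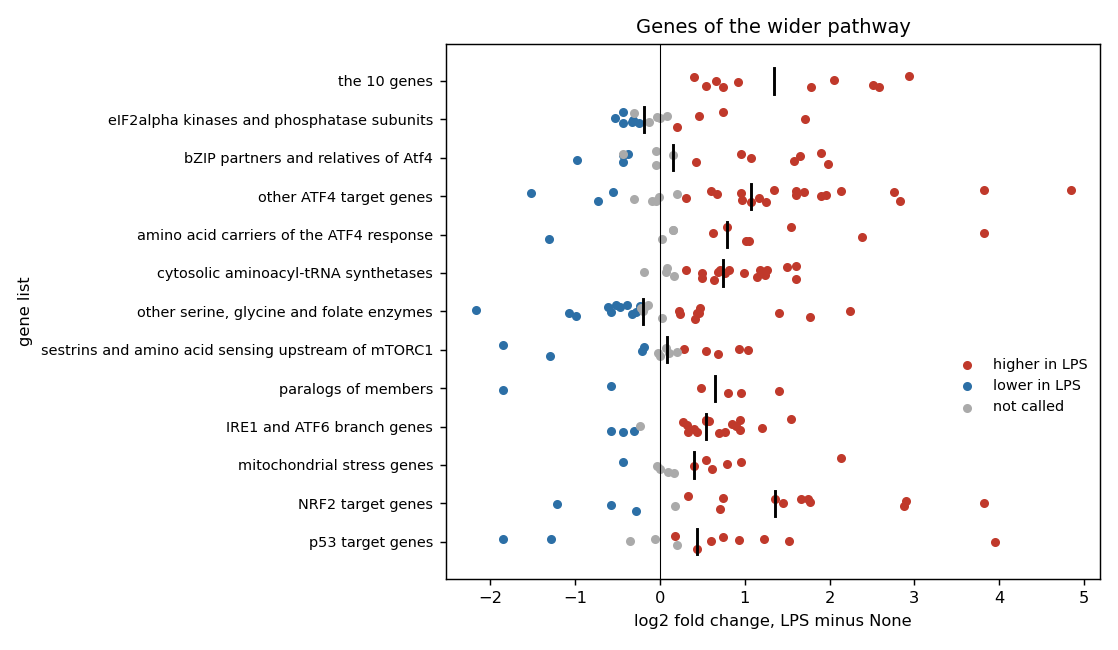
Log2 fold change of LPS minus None for every tested gene of the 10 genes and of 12 further lists, with red points called higher in LPS, blue points called lower, grey points not called and a black bar at each median. The 10 genes, other Atf4 targets, carriers and synthetases lie mostly to the right. So do the IRE1 and ATF6 genes, NRF2 targets, p53 targets, mitochondrial stress genes and paralogs. The eIF2alpha list, the leucine zipper partners, the amino acid sensing genes and the remaining folate enzymes lie on both sides of 0.

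The remaining serine, glycine and folate enzymes were called in either direction about as often as all genes tested, at 34.0% higher and 35.1% lower. With library totals those shares over all genes tested were 22.5% and 51.0%. Of 25 genes, 9 rose and 11 fell, or 6 and 15 with library totals and 8 and 7 without None replicate 3. Psph, the phosphatase that completes serine synthesis, had 41.6, 53.5 and 45.3 TPM in LPS, against 12.6, 18.6 and 16.5 TPM in None. It rose by 1.77 on the log2 scale (adjusted p 2.18e-07, edgeR), and Psph over Phgdh was 0.296 ± 0.0392 in LPS and 0.133 ± 0.0124 in None. The cytosolic counterpart of Shmt2, Shmt1, fell (-0.57, not called by limma on TPM at -0.39), as did Mthfd1l (-0.47), which releases formate from mitochondria. Mat2a, which makes the methyl donor S-adenosylmethionine, had 16.5, 21.2 and 16.9 TPM in LPS, against 104, 105 and 89.7 TPM in None, and fell by 2.17 (adjusted p 2.98e-09, edgeR). Tyms (-1.07), the folate-dependent enzyme of thymidylate synthesis, and Paics (-0.61), an enzyme of purine synthesis, fell too.

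Relatives of the 10 genes did not move alike. Of 6 paralogs tested, 4 rose and 2 fell, where 34.0% of all genes tested were higher and 35.1% lower. With library totals 3 rose and 2 fell, against 22.5% higher and 51.0% lower over all genes tested. Sesn1, known as a p53 target, had 9.87, 9.42 and 9.45 TPM in LPS, against 40.7, 40.2 and 39.1 TPM in None, a log2 change of -1.85 (adjusted p 4.68e-10, edgeR). Sesn2 over Sesn1 was 1.77 ± 0.184 in LPS and 0.262 ± 0.0156 in None, so Sesn2 was the more abundant sestrin in LPS and Sesn1 in None. Chac2, which degrades glutathione steadily, was called higher at 0.49, a call lost with library totals (0.23), by limma on TPM (0.26) and without both libraries numbered 1 (0.39), and Chac1 over Chac2 was 1.19 ± 0.132 in LPS and 0.222 ± 0.0747 in None. Mthfd2l (1.41) and Trib1 (0.80) rose, and Trib2 had 0 counts. Of 14 genes of amino acid sensing upstream of mTORC1, 5 rose and 4 fell, close to the share over all genes tested (34.0% higher), or 4 and 5 with library totals, and the number lower was 2 when LPS replicate 2, None replicate 1 or None replicate 3 was left out. Castor2 (1.04) and Wdr59 (0.93) rose, and Flcn fell (-1.29) beside Sesn1.

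Genes of neighbouring stress pathways gave the following counts, where 34.0% of all genes tested were higher and 35.1% lower. With library totals those shares were 22.5% and 51.0%. Of 20 genes of the IRE1 and ATF6 arms of the unfolded protein response, 16 rose and 3 fell (11 and 4 with library totals), with Creld2 (1.54), Pdia4 (1.21), Hspa5 (0.95) and Sdf2l1 (0.95) higher and Xbp1 (-0.58) and Atf6 (-0.43) lower. Their median log2 fold change was 0.55. Mitochondrial stress genes rose in 6 of 11 and fell in 1 (5 and 3 with library totals), among them Lonp1 (0.79), Yme1l1 (0.61) and Hspa9 (0.54). Of 15 NRF2 target genes 11 rose and 3 fell (10 and 3 with library totals), and their median of 1.36 was close to the 1.35 of the 10 genes. Those that rose were led by Slc7a11, which that factor also controls, Fth1 (2.90), Hmox1 (2.88) and Me1 (1.77). Osgin1 (-1.21), Gclc (-0.58) and Taldo1 (-0.28) fell. Among 13 p53 target genes 8 rose and 2 fell (5 and 4 with library totals), with Fas (3.95) and Cdkn1a (1.52) higher and Sesn1 and Trp53inp1 (-1.28) lower.

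The same library of a group was the lowest for most of these genes. LPS replicate 1 had the lowest CPM of its group in 9 of 10 genes, with Psat1 the exception, and None replicate 1 in all 10, while LPS replicate 1 was lowest in 34.9% of all genes tested and None replicate 1 in 38.1%. The mean deviation from the group mean was -0.21 on the log2 scale in LPS replicate 1 and -0.23 in None replicate 1, and between 0.05 and 0.16 in the other 4 libraries. Over all genes tested the mean deviations lay between -0.011 and 0.012. LPS replicate 1 also differed most from the rest of its group in all counts, at a chi-square of 15.2 and 16.8 per degree of freedom against the other LPS libraries and 9.63 between those. The same held for None replicate 1, at 6.85 and 8.85 against the other None libraries and 3.28 between those. The part of these libraries in the results was not tested beyond leaving them out. Without both libraries, an alternative chosen after seeing this, all 10 genes were still called higher, with log2 fold changes from 0.48 for Psat1 to 2.75 for Chac1.

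**Figure D5:**
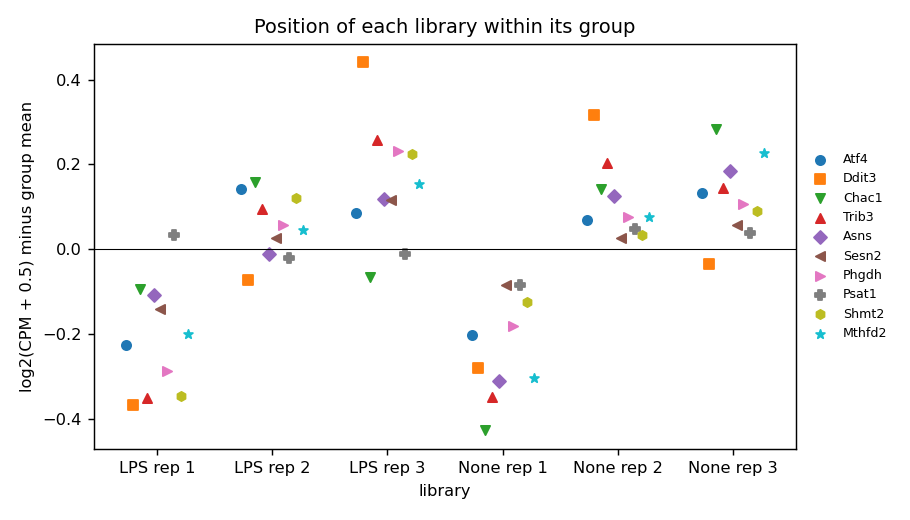
Deviation of log2(CPM + 0.5) from the group mean for each of the 10 genes in each library, LPS libraries on the left and None libraries on the right, with 1 marker shape and colour per gene. Nearly all points of LPS replicate 1 and all points of None replicate 1 lie below 0.

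By distance between profiles of log2 CPM over the 6 libraries, each centred on its mean and compared among 9437 genes, the genes most like Atf4 were Phf10 (distance 0.0700), Cks2 (0.0922) and Ndufs4 (0.116). Those most like Chac1 were Galnt3 (0.246), Trem3 (0.290) and Asns (0.315), and those near Phgdh included Chchd1 (0.115) and Tcof1 (0.118). These profiles span both groups, so genes of like fold change lie close.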

How the data were processed

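RNA of 9 samples in 3 groups is named in the labels, and 6 libraries (LPS and None, 3 each) were used. The 12 other library columns of each table match no label and were not used. Per the labels' protocols reads were filtered with SOAPnuke. RSEM 1.3.1, STAR 2.7.10a and the build GRCm38 are listed in the submitters' processing notes. Whether counting used strand was not given in the sources used here. The deposited values are expected counts per gene, not normalized, and TPM, which the authors scaled for transcript length. Starts in the files count from 0 and are printed plus 1.

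Expected counts were rounded to whole numbers. Genes without a symbol (530) held 0.0231% to 0.0318% of counts. Genes were filtered with filterByExpr (count minimum 10, total 15), leaving 11916, scaled by TMM and tested with edgeR 4.0.16 (R 4.3.3) by quasi-likelihood, two-sided, with group as the single term. SEs are the log2 fold change over the square root of F. The biological coefficient of variation was 8.32%. Totals of 14650843 to 17665200 counts limit precision for low genes, and intervals beyond the spread between libraries are not given. Replicates of a group differed by more than sampling noise (chi-square per degree of freedom 3.28 to 16.8). The fit was tested on simulated data in which few genes changed, evenly in both directions. That setting cannot show how the scaling behaves where 69.1% of genes are called.

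The members and lists were chosen with earlier results of these data known. Of 183 list entries 181 matched by symbol and 2 through another name of the gene. The text names all 10 genes, up to 4 genes a list with the largest change among those called with a mean of at least 5 CPM, Psph, the 3 genes nearest to Atf4, Chac1 and Phgdh, and examples chosen after their values were seen. One gene that this rule picks is not reported here. Alternatives were RLE factors, library totals, DESeq2 1.42.0, other filters, limma 3.58.1 on log2(TPM + 1) and log2(TPM + 0.1), the replicate block, each library left out in turn, promoter windows without the bases after the start, and correlation in place of distance.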

Additional observations from a re-analysis of the deposited data

How the results depend on the processing

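Of the 10 genes, none changed direction under any of 16 alternatives, and 9 or 10 were called higher with each library left out in turn. Shmt2 lost its call with library totals (0.15), by limma on TPM (0.17, 0.18 with a pseudocount of 0.1, 0.17 unfiltered), without LPS replicate 3 (0.30) and without None replicate 1 (0.34), and Phgdh by limma on unfiltered TPM (0.42, adjusted p 0.059). Of 1416 values of 89 named genes under alternatives, 1357 kept direction and call, 35 lost the call, 22 gained one and 2 changed sign, both with library totals: Mthfd1 was -0.03 there (0.23 with TMM) and Qars -0.19 (0.07 with TMM). The cause was not tested.

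Scaling by library totals called 2679 genes higher, and limma called 2672 on log2(TPM + 1) and 2656 on log2(TPM + 0.1), against 4052. Over all genes tested, library totals gave 22.5% higher and 51.0% lower. With library totals the eIF2alpha list had 2 higher and 11 lower, leucine zipper partners 7 lower, other Atf4 targets 7 lower, carriers 2 lower, synthetases 2 lower, mitochondrial stress genes 3 lower, and p53 targets 5 higher and 4 lower. By limma on TPM, with either pseudocount or no filter, 2 eIF2alpha genes, 5 folate enzymes and 5 p53 targets were higher, and 1 synthetase, 1 paralog and 2 mitochondrial stress genes were lower. With the filter, 1 other Atf4 target was lower by limma, and without it 10 IRE1 and ATF6 genes were higher. Synthetases called lower numbered 1 with no count filter. DESeq2 called 2 amino acid sensing genes lower. With single libraries left out, 0 to 1 synthetases, 7 to 11 folate enzymes and 2 to 4 amino acid sensing genes were lower. By correlation in place of distance, 0 of the 3 genes nearest to Chac1 and 1 of those nearest to Phgdh were kept. Windows without the bases after the start held the composite letters in 2 of 10 genes.

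Deviations of same-numbered LPS and None libraries correlated at 0.13, 0.020 and 0.0076. Not every pair was over 0.1, so the numbers were not taken as pairs, although the pair numbered 1 had the highest correlation of all LPS and None pairs. With the replicate block 10 of 10 genes were higher, Shmt2 by 0.39, and 4114 genes were higher and 4248 lower over all, with 1 synthetase (Vars, -0.20) lower and Ppp1r15a called lower (-0.30). Low counts limit Chac1, with 105 counts in the None group.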
